A study of Mus musculus with 2 samples.

Results

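The 28 genes described here are the enzymes and regulators of cholesterol and fatty acid synthesis, chosen by symbol from the 34097 genes listed for both libraries, and every one of them was found once. They comprise 17 enzymes of cholesterol synthesis from HMG-CoA synthase onward (Hmgcs1, Mvk, Pmvk, Mvd, Idi1, Fdps, Fdft1, Sqle, Lss, Cyp51, Tm7sf2, Msmo1, Nsdhl, Hsd17b7, Ebp, Sc5d and Dhcr7), 4 genes of regulation and sterol transport (Insig1, Srebf1, Srebf2 and Stard4) and 7 genes of fatty acid synthesis (Acly, Acaca, Fasn, Scd1, Scd2, Elovl6 and Acss2). The study profiled single cells of 2 mouse lung cancer xenografts of LLC, the Lewis lung carcinoma line, with the 10x Genomics platform, which counts RNA molecules by unique molecular identifiers (UMIs). The control group was 1 library labelled as treated with control. The knockdown group was 1 library, of a tumour given a short hairpin (shRNA) that targets Gfpt2, an enzyme of the hexosamine pathway. The hairpin sequence, the number of clones and the host mice are not given in the labels used here. Each group had 1 library, so no difference could be set against a spread between tumours, and no test was run.

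Cholesterol is built from acetyl-CoA through mevalonate, farnesyl diphosphate, squalene and lanosterol, and fatty acids are built from the same acetyl-CoA through malonyl-CoA and palmitate. When membrane sterol is low, the transcription factors encoded by Srebf2 and Srebf1 are released from the endoplasmic reticulum, where the Insig1 protein retains them, and switch on the genes of both pathways, Insig1 included. Growing tumour cells need new membrane, and macrophages both make sterol and take it up with debris.

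The promoters of 4 members are shown because these genes carry the results below: Insig1 was the member that differed most between the libraries in tumour-like cells, and Idi1, Hmgcs1 and Msmo1 had the largest fold differences between cells with high and lower cholesterol enzyme levels in the control library. Each run gives the 250 bases before the RefSeq start on the gene's own strand, from RefSeq's GRCm38.p6. Capitals mark 4 motifs searched on both strands, which are the sterol regulatory element TCACNCCAC, the box written CCAAT, the E-box letters CACGTG, and a GC box, GGGCGG. Insig1 lies at chr5:28071162-28071411 (plus strand), Hmgcs1 at chr13:119690101-119690350 (plus), Idi1 at chr13:8885356-8885605 (plus) and Msmo1 at chr8:64733579-64733828 (minus).
Insig1: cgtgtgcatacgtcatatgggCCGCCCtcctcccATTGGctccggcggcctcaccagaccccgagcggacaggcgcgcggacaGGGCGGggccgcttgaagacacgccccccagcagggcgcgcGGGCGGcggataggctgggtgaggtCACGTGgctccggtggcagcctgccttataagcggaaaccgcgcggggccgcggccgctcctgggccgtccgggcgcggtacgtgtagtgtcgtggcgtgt
Hmgcs1: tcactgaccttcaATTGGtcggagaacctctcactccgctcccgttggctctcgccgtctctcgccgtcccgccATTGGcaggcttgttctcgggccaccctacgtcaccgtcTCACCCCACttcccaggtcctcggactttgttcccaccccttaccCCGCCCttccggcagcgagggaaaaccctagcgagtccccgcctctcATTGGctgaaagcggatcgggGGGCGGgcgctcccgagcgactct
Idi1: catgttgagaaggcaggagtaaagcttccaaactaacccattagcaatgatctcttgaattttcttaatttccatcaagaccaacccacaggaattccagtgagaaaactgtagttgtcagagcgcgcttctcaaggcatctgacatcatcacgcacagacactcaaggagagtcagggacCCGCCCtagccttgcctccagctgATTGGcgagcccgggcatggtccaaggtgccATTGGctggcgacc
Msmo1: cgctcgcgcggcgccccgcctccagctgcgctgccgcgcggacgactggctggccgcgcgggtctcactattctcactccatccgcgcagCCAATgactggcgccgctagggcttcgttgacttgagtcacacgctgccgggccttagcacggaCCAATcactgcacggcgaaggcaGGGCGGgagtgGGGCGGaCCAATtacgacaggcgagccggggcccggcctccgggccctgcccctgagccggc

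Hmgcs1, which encodes the enzyme that makes HMG-CoA, was the only one of the 22 members with a promoter in the RefSeq table to hold TCACNCCAC, which began 137 bases before its start. This motif was present in 1.44% of all 27025 genes with a promoter, counting a gene once if any of its 300-base windows (250 bases before the start and 50 after) held it. CCAAT was present in 20 of the 22 members, against 41.1% of all genes, and GGGCGG in 18, against 38.2%. CACGTG was present in 4 members, against 8.09% of all genes, and 1 of these was Insig1, 101 bases before its start. No matched motif overlapped another in the 4 runs shown. Bases after the start matched a reference transcript of the gene for Insig1, Idi1 and Msmo1 but not for Hmgcs1. Fdps, Fdft1, Sqle, Stard4, Scd1 and Scd2 had no promoter in the RefSeq table. A match describes the letters only and does not show that a factor binds there.

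The control library held 11977 cells and 165824226 UMIs and the knockdown library 12853 cells and 138402860 UMIs, with 37 cell barcodes in both. After filtering, 10662 and 11450 cells were kept. Levels are UMIs of a gene per 1000000 UMIs summed over the cells of a class (CPM), and ratios are knockdown over control on the log2 scale. A gene is called higher or lower between the libraries where the higher level exceeded the lower by at least 25%. Intervals are exact at 95% and cover counting error only. Tumour-like cells (4986 control, 5211 knockdown) were those without Ptprc, the leukocyte antigen CD45, with Lyz2 under 5 per 10000 UMIs and with at least 5000 UMIs. They expressed Hmga2 at 220 and 218 CPM, while Krt8, Krt18 and Epcam, epithelial markers, were each under 0.1 CPM, and the 6 fibroblast markers summed to 2519 and 2826 CPM. Gfpt2 had 2.05 CPM in control tumour-like cells and 0.650 CPM in those of the knockdown, a log2 ratio of -1.65 (-2.10 to -1.23).

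In tumour-like cells, 27 of the 28 members differed by less than 25% between the libraries, and Insig1, which encodes the sterol-sensing retention protein, was higher in the knockdown library. It stood at 39.7 CPM in control cells and 52.0 CPM with the knockdown, a log2 ratio of 0.39 (0.33 to 0.45). No member was lower. Of all 13393 genes with at least 100 UMIs over both libraries, 9.92% were higher and 2.36% lower by that measure, so 1 of 28 was below the background share. The median log2 ratio of the members was -0.01, beside 0.05 over all genes.

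The other 3 genes of regulation and transport also had ratios above 0, but none reached 25%. Srebf1, which encodes the factor linked mostly to fatty acid genes, was at 33.7 and 37.4 CPM (log2 0.15, 0.08 to 0.22). Its paralogue Srebf2, linked mostly to sterol genes, was at 52.4 and 57.5 CPM (log2 0.13, 0.08 to 0.19). Stard4, a cytosolic sterol carrier, was at 17.3 and 18.2 CPM, and its interval held 0.

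The 17 cholesterol enzymes had a median log2 ratio of -0.02, with a range from -0.13 to 0.13. At the low end were Hmgcs1 at 76.8 and 70.0 CPM (log2 -0.13, -0.18 to -0.08) and Msmo1, a sterol methyl oxidase, at 102 and 93.6 CPM (log2 -0.13, -0.17 to -0.09). Idi1, the isomerase that makes the reactive isoprenoid unit, was at 69.8 and 64.7 CPM. These 3 enzymes therefore lay slightly below control in the same cells in which Insig1 lay above it. Sqle, squalene epoxidase, was at 55.6 and 55.3 CPM. Cyp51, the lanosterol demethylase, was at 77.7 and 81.1 CPM (log2 0.06, 0.01 to 0.11). Dhcr7, which completes cholesterol by reducing its direct precursor, was at 18.7 and 20.4 CPM (log2 0.13, 0.04 to 0.22).

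The 7 fatty acid genes had a median log2 ratio of 0.03. Acly, which makes cytosolic acetyl-CoA from citrate, was at 103 and 105 CPM. Fasn, fatty acid synthase, was at 90.0 and 93.7 CPM. The desaturases Scd1 and Scd2, which place the first double bond, were at 50.9 and 56.0 CPM and at 147 and 153 CPM. Elovl6, the elongase acting on palmitate, was at 29.7 and 27.8 CPM. Every one of these pairs differed by less than 25%.

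**Figure D1:**
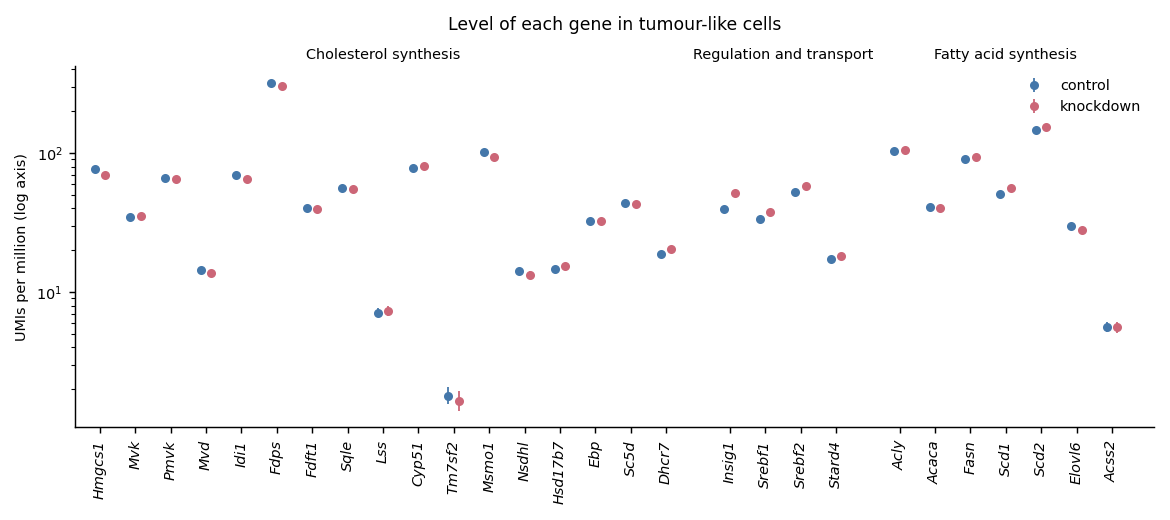
Level of each of the 28 genes in tumour-like cells, as CPM on a log axis, for the control (blue) and knockdown (red) library. Points are the summed level and bars the exact 95% Poisson interval, which covers counting error only; the pairs nearly coincide except for Insig1.

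Insig1 was higher by at least 25% in knockdown cells in 5 of the 6 tumour states examined, each with an interval above 0. The states were cutoffs on marker genes per 10000 UMIs and may overlap. They are parts of the same cells of the same 2 libraries, so this count is not repeated support for the difference in the whole class. The share of all genes past 25% within each state was not counted. Among cycling cells Insig1 was at 40.1 and 54.4 CPM (log2 0.44, 0.35 to 0.52), and outside them at 39.3 and 49.7 CPM. The ratio was largest in the Csmd3 Robo2 state, at 39.2 and 84.7 CPM (log2 1.11, 0.70 to 1.53), and in the Tnnt2 Tafa5 state, at 44.0 and 79.0 CPM (log2 0.84, 0.56 to 1.13). In the Krt16 Klk8 state, with 46 knockdown cells, it was at 30.0 and 34.0 CPM, short of 25%, and the interval held 0. Differences between the states in this ratio were not tested. Many cells lay within 20% of a state's cutoff, on either side of it. For the Csmd3 Robo2 state of 109 control and 151 knockdown cells these were 58 and 100 cells. For the Tnnt2 Tafa5 state of 259 and 118 cells they were 203 and 111.

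Of 28 further genes of these pathways, Lpin1, a phosphatidate phosphatase of glycerolipid synthesis, was the only one past 25% in tumour-like cells, at 7.84 and 9.84 CPM (log2 0.33, 0.19 to 0.47). This was 1 of the 25 with enough UMIs, beside 9.92% of all genes higher and 2.36% lower. None of the 4 sterol-sensing genes (Scap, Insig2, Mbtps1 and Mbtps2) and none of the 8 measured genes of storage, export and oxysterol reached it. Fabp4, a fatty acid carrier, was at 29.8 and 84.6 CPM. The summed level of the 5 adipocyte markers, almost all of it Fabp4, was 30.0 and 84.7 CPM, and 2 of the 5 in control and 1 of the 5 in knockdown cells were at 0.

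The cholesterol enzymes varied widely from cell to cell. After every tumour-like cell was thinned to 5000 UMIs, a cell held a median of 3 UMIs of the 17 enzymes in both libraries, with a 90th percentile of 12 in control and 10 in knockdown cells and a maximum of 38 and 36. The variance was 4.81 times the mean in control and 3.98 times the mean in knockdown cells. For the 7 fatty acid genes it was 1.58 and 1.48 times the mean. No UMI of the 17 enzymes was found in 9.35% of control and 8.19% of knockdown cells.

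**Figure D2:**
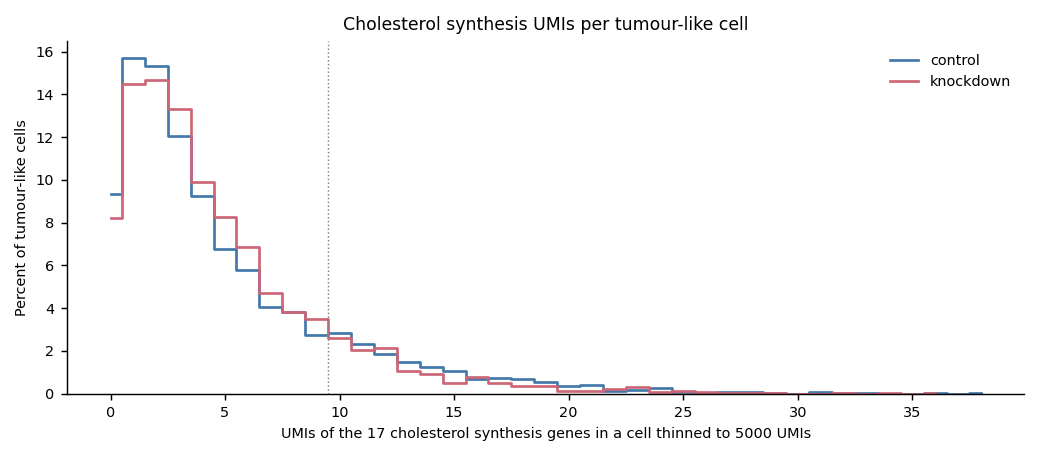
Share of tumour-like cells (percent) by the number of UMIs of the 17 cholesterol synthesis genes, after thinning each cell to 5000 UMIs, for control (blue) and knockdown (red). The dotted line marks 10 UMIs; both curves have a long tail, which is slightly heavier in control.

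Cells with 10 or more UMIs of the 17 enzymes were taken as a high range, a cutoff set after the data were seen. They made up 758 of 4986 control cells (15.2%, Clopper-Pearson interval 14.2 to 16.2) and 643 of 5211 knockdown cells (12.3%, 11.5 to 13.3). The range has no natural edge, since 585 control and 622 knockdown cells held 8 to 11 UMIs. The share was also lower in the knockdown library among cycling cells (16.4% and 13.2%), among cells in none of the states (17.0% and 13.6%) and among cells without a UMI of Xist, which marks host cells of female mice (15.3% and 12.4%). Before thinning, high and other cells had median depths of 19994 and 18546 UMIs in control and 15097 and 14610 UMIs in knockdown. Their median mitochondrial shares were 1.74% and 1.76% in control and 1.82% and 1.87% in knockdown.

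Most enzymes of the sterol pathway were higher together in these cells. To keep a gene from choosing its own cells, each enzyme was compared between cells with 10 or more UMIs of the other 16 enzymes and the remaining cells. Of the 16 enzymes with at least 10 UMIs expected in the high cells of each library, 15 were at least 1.5-fold higher in both libraries. The exception was Ebp, a sterol isomerase, at 1.78-fold in control and 1.32-fold in knockdown. Idi1 had 0.991 UMIs per high cell and 0.236 per other cell in control, a 4.20-fold difference (3.80 to 4.64), and 3.75-fold in knockdown (3.36 to 4.17). Hmgcs1 was 4.06-fold higher in control (3.70 to 4.45) and 3.43-fold in knockdown (3.11 to 3.79). Msmo1 was 3.87-fold and 3.55-fold higher. At the end of the pathway, Dhcr7 was 2.00-fold and 1.99-fold and Sc5d, a sterol desaturase, 2.16-fold and 2.20-fold higher. Tm7sf2, a sterol reductase, had too few UMIs to judge.

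Genes that the cutoff did not use moved with it. Over all 10586 other genes with enough UMIs, 0.397% were higher by 1.5-fold in both libraries and 1.12% lower. Of the 4 genes of regulation and transport, 3 were higher, and of the 7 fatty acid genes, 5 were higher; none was lower. Insig1 was 2.98-fold higher in control (2.63 to 3.38) and 2.56-fold in knockdown (2.27 to 2.88), and Stard4 was 2.29-fold and 2.19-fold higher. Srebf2 was 1.83-fold and 1.79-fold higher, while Srebf1 was at 1.14-fold and 1.18-fold with both intervals holding 1. Elovl6 was 2.76-fold and 2.15-fold higher and Acss2, which makes acetyl-CoA from acetate, 2.68-fold and 2.75-fold. Fasn was 1.96-fold and 1.80-fold, Scd1 1.75-fold and 1.82-fold and Scd2 1.83-fold and 1.69-fold higher. Acly and Acaca, the carboxylase that makes malonyl-CoA, missed the fold in the knockdown library, at 1.46-fold and 1.45-fold.

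Of 14 further synthesis and desaturation genes, 13 had enough UMIs and 7 were higher by 1.5-fold in both libraries. They included Acat2, the thiolase that makes acetoacetyl-CoA (3.98-fold and 2.62-fold), Fads2, a polyunsaturated fatty acid desaturase (2.50-fold and 2.24-fold), and Acsl3, which activates fatty acids (2.12-fold and 2.00-fold). None of the 4 sterol-sensing genes and none of the 6 storage and export genes with enough UMIs did so. The 42 genes that passed this fold thus held 8 members and 7 of the further synthesis genes.

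Between the libraries, high cells had 0.501 Insig1 UMIs each in control and 0.602 in knockdown, a difference short of 25% (interval of the ratio 1.04 to 1.39). Other cells had 0.168 and 0.235, a difference past 25% (1.27 to 1.54). The 2 intervals overlap, and the difference between the 2 ratios was not tested.

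**Figure D3:**
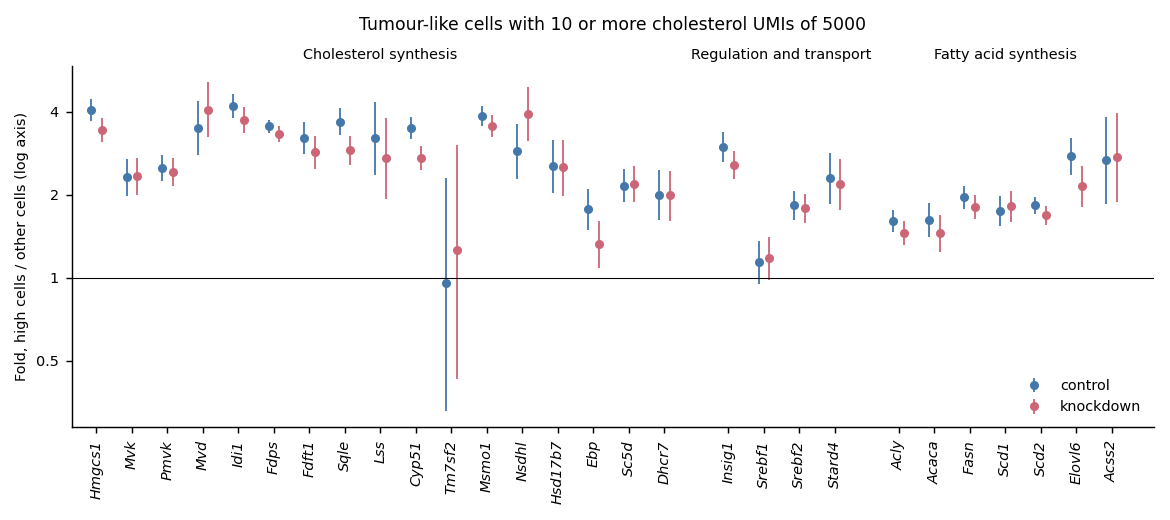
Fold difference of each gene between tumour-like cells with 10 or more cholesterol UMIs of 5000 and the other tumour-like cells (log axis), within the control (blue) and knockdown (red) library; for a cholesterol gene, its own UMIs did not count towards the 10. Bars are exact 95% intervals for counting error; Srebf1 and Tm7sf2 sit near 1 and most enzymes between 2 and 4.

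Several members differed between tumour states within a library. The Krt16 Klk8 state (201 control and 46 knockdown cells), named for a keratin and a protease of the epidermis, had 3 of the 25 members with enough UMIs lower by 1.5-fold in both libraries and none higher, beside 1.56% of all genes lower and 0.944% higher. The 3 were Hmgcs1, Idi1 and Nsdhl. Hmgcs1 was at 32.3 CPM inside and 79.0 CPM outside the state in control (log2 -1.29, -1.53 to -1.06), and at 35.3 and 70.3 CPM in knockdown (log2 -0.99, -1.60 to -0.45). Idi1 was at 28.8 and 71.8 CPM in control (log2 -1.32) and at 36.6 and 65.0 CPM in knockdown (log2 -0.83). Nsdhl, a sterol dehydrogenase, was lower by 0.94 and 1.03 on the log2 scale, but on 5 UMIs in the knockdown state, where the interval held 0.

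The median log2 difference of the cholesterol enzymes in the Krt16 Klk8 state was -0.84 in control and -0.51 in knockdown, and that of the fatty acid genes -0.15 and -0.20. Fdps, which makes farnesyl diphosphate, was at 150 and 327 CPM in control (log2 -1.13) but at 251 and 305 CPM in knockdown (log2 -0.28). Sqle was lower by 0.98 in control and not in knockdown, at 57.5 CPM inside and 55.3 CPM outside. Srebf1 went the other way, at 55.4 and 32.6 CPM in control (log2 0.76, 0.58 to 0.94) and 41.8 and 37.4 CPM in knockdown. High cells made up 3.48% of the control state (1.41 to 7.04) and 2.17% of the knockdown state (0.0550 to 11.5). Of the further genes, Fads2 was lower in the state in both libraries (log2 -0.77 and -0.71).

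In the Cryab Krt14 state (184 control and 344 knockdown cells), 24 of the 27 members with enough UMIs lay below the cells outside it in both libraries, and Scd1 lay above in both. Of all genes, 58.0% lay below in both libraries and 17.1% above. Hsd17b7 was above 0 in control (log2 0.28) and below it in knockdown (-0.15), and Sc5d was close to 0 in both (-0.03 and 0.01). The medians were -0.29 and -0.31, beside -0.16 and -0.13 over all genes. Mvk, mevalonate kinase (log2 -0.59 and -0.74), Acaca (-0.60 and -0.68) and Elovl6 (-0.80 and -0.82) were lower by 1.5-fold in both libraries and none was higher, beside 5.04% of all genes lower and 1.05% higher. Elovl6 was at 17.3 CPM inside and 30.2 CPM outside the state in control, and at 16.3 and 28.7 CPM in knockdown. Scd1 was at 69.2 and 50.2 CPM in control (log2 0.46, 0.28 to 0.64) and at 80.8 and 54.1 CPM in knockdown (log2 0.58, 0.44 to 0.71).

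In cycling cells (1930 control, 2091 knockdown) only Acss2 passed the fold, lower at 4.07 CPM inside and 7.05 CPM outside in control and 4.10 and 6.98 CPM in knockdown, beside 6.37% of genes lower and 6.48% higher. Matrix-rich cells (1511 and 1824), defined by collagen genes, had no member past the fold in both libraries, where 9.21% of genes were higher and 6.45% lower. Acss2 lay higher there, at 8.76 and 4.63 CPM in control (log2 0.92) and 7.14 and 4.94 CPM in knockdown (log2 0.53). In the Csmd3 Robo2 state (109 and 151 cells) Acaca alone was higher (log2 0.75 and 0.67) and none was lower, beside 7.65% higher and 2.75% lower of all genes. Acaca was at 68.4 CPM inside and 40.7 CPM outside in control, and at 63.5 and 39.8 CPM in knockdown. The Tnnt2 Tafa5 state (259 and 118 cells) had none, beside 0.653% higher and 2.54% lower.

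**Figure D4:**
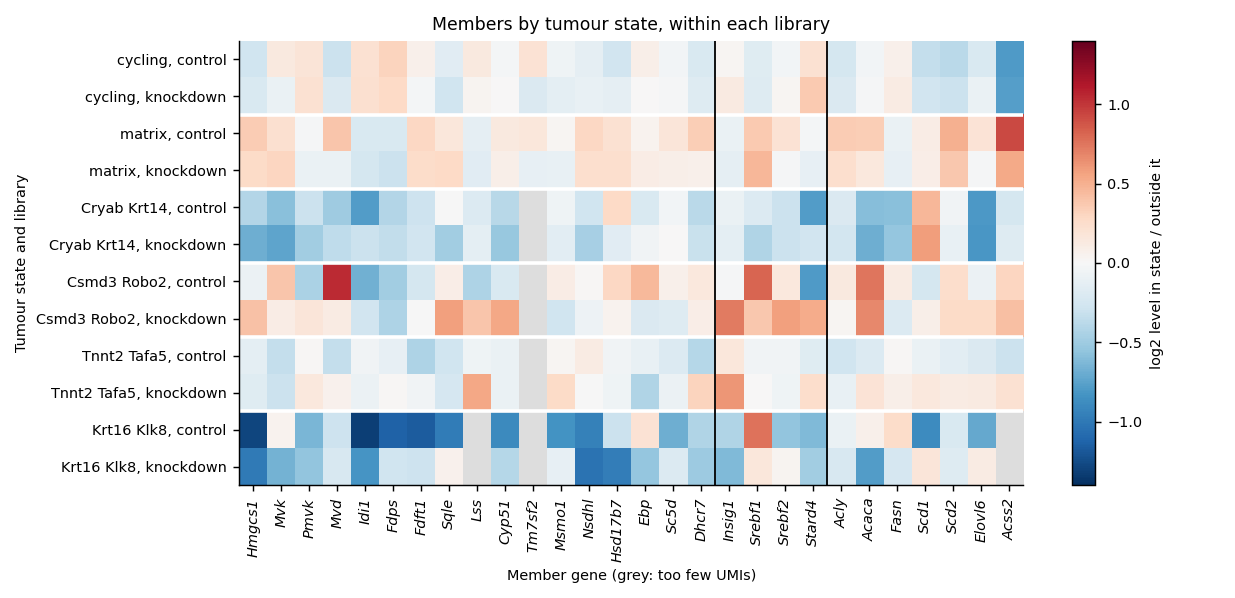
Log2 level of each gene inside a tumour state over the tumour-like cells outside it, within each library (blue lower, red higher, grey too few UMIs). The Krt16 Klk8 row of the control library is bluest at Idi1 and Hmgcs1; in the Cryab Krt14 rows 24 of 27 genes lie below 0 in both libraries, and Scd1 is red in both.

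Between cell classes, 24 of the 28 members had their highest level in tumour-like cells in each library, against macrophages (cells with C1qa, C1qb and C1qc at 10 or more per 10000 UMIs) and T cells (2 or more UMIs of Cd3d, Cd3e and Cd3g). Over all 13730 genes with a mean level of at least 1 CPM in these classes, 40.1% did so in control and 39.0% in knockdown. The exceptions in both libraries were Ebp, Tm7sf2 and Stard4, with Acss2 in control and Insig1 in knockdown. To limit tumour RNA in the macrophage class, levels were also read in macrophages with at least 1 Ptprc UMI and no UMI of Hmga2, Cryab, F3 or Tnnt2, genes abundant in tumour-like cells; this restriction was set after the data were seen. Tumour-like levels were a median of 2.58 times those of these macrophages in control and 2.70 times in knockdown, and 26 of 28 members were higher in tumour-like cells in each. Over all 13382 genes with a mean of at least 1 CPM, the medians were 1.17 and 1.19 times, with 57.1% and 57.3% of genes higher in tumour-like cells. Scd1 differed most among the genes given here, at 50.9 CPM in tumour-like cells and 3.13 CPM in these macrophages in control, and at 56.0 and 5.22 CPM in knockdown. Ebp went the other way, at 32.4 and 75.9 CPM in control and 32.3 and 72.6 CPM in knockdown. Insig1 hardly differed, at 39.7 and 35.8 CPM in control and 52.0 and 46.1 CPM in knockdown.

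The Scd1 part of the RNA of the 2 desaturases was lower in the restricted macrophages than in tumour-like cells. Scd1 made up 25.7% of the Scd1 and Scd2 UMIs of control tumour-like cells (25.1 to 26.3) and 26.8% in knockdown (26.2 to 27.4). In the restricted macrophages it made up 9.47% in control (6.99 to 12.5) and 17.1% in knockdown (13.1 to 21.8). In the whole macrophage gate the share was 13.8% in control (11.8 to 16.1) and 24.5% in knockdown (22.4 to 26.6), the latter overlapping the tumour-like interval. T cells were at 19.6% in control (15.8 to 24.0) and 23.8% in knockdown (18.7 to 29.4), which also overlapped the tumour-like interval in knockdown. In T cells with Ptprc, outside the macrophage gate and without a tumour marker UMI, 12.5% in control (6.41 to 21.3) and 8.51% in knockdown (2.37 to 20.4) lay below the tumour-like intervals, on 88 and 47 UMIs of both genes.

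In the whole macrophage gate (3990 control and 4556 knockdown cells), 17 of the 28 members were higher by at least 25% in the knockdown library and none was lower, beside 24.3% of all genes higher and 5.88% lower. At 1.5-fold, 8 were higher, beside 11.6% of all genes. The median log2 ratio was 0.46, against 0.11 over all genes. Scd1 was at 6.03 and 19.0 CPM (log2 1.65, 1.38 to 1.94), Fasn at 18.4 and 33.4 CPM (log2 0.86) and Sqle at 12.3 and 21.6 CPM (log2 0.82). Elovl6 at 7.17 and 12.5 CPM (log2 0.80), Fdft1, squalene synthase, at 11.9 and 18.9 CPM (0.67), Scd2 at 37.6 and 58.6 CPM (0.64), Cyp51 at 25.1 and 38.3 CPM (0.61) and Hsd17b7, a sterol ketone reductase, at 4.47 and 6.74 CPM (0.59) completed those past 1.5-fold. Of these 8 genes, 4 belong to cholesterol synthesis and 4 to fatty acid synthesis. Of the regulators, Srebf2 was at 29.2 and 42.9 CPM (log2 0.56), Insig1 at 36.0 and 52.3 CPM (0.54) and Stard4 at 9.90 and 14.1 CPM (0.51). Idi1 (log2 0.48), Fdps (0.48), Sc5d (0.48), Acaca (0.45), Hmgcs1 (0.42) and Msmo1 (0.41) were the other members past 25%. Srebf1 at 15.0 and 18.5 CPM (0.31) and Acly at 46.2 and 57.1 CPM (0.30) fell just short of it.

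Tumour markers also differed between the libraries in this gate, and their part in the member ratios was not tested. The summed level of Hmga2, Cryab, F3 and Tnnt2 in the macrophage gate was 65.8 CPM for control and 183 CPM for knockdown cells, and none of the 4 was at 0. Cells of the gate with a UMI of any of them made up 17.3% in control and 27.2% in knockdown, and 6.23% and 18.2% after thinning to 2000 UMIs. The 6 fibroblast markers, of which tumour-like cells express mainly Col3a1 and Dcn, summed to 298 and 821 CPM. Against the cells of the gate without a UMI of these 4 tumour markers, cells with one had 10 of the 28 members higher by 1.5-fold in both libraries and none lower, beside 13.7% of all genes higher and 6.89% lower. Of the other members, Ebp lay below 0 in both libraries. Among the 10, Fasn was at 35.6 CPM with and 13.2 CPM without one in control, and at 61.8 and 16.3 CPM in knockdown.

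In the restricted macrophages (2355 control and 2136 knockdown cells) most members differed by less than 25%. Of the 23 members that reached 100 UMIs, only Insig1 was past 25%, at 35.8 and 46.1 CPM (log2 0.36, 0.18 to 0.55), and none was lower, beside 10.8% of genes higher and 6.56% lower. The median log2 ratio was -0.01, against 0.02 over all genes. Markers of other cells still differed there, and their part in the Insig1 value was not tested. The fibroblast markers summed to 126 and 185 CPM, with Lum at 0 in knockdown, the 4 endothelial markers to 16.8 and 36.4 CPM and the 6 T cell markers to 42.8 and 72.0 CPM. The 4 neutrophil markers summed to 86.6 and 43.5 CPM, with S100a8 at 21.4 and 0.394 CPM and S100a9 at 32.5 and 0.0986 CPM. Csf3r, of the same list, went the other way, at 32.5 and 42.9 CPM, and made up nearly all of the knockdown sum. The 5 LLC tumour markers summed to 2.02 and 1.08 CPM, but Hmga2, which made up nearly all of their sum in the whole gate, was at 0 because the cells were selected to hold none. This sum therefore does not measure the tumour RNA left in these cells. Fasn was at 12.9 and 14.1 CPM, Cyp51 at 22.4 and 23.4 CPM, Srebf2 at 27.4 and 29.9 CPM and Idi1 at 18.9 and 19.9 CPM, each with an interval of the ratio holding 0. Hmgcs1 (log2 -0.12), Sqle (-0.02), Srebf1 (-0.13) and Acly (-0.15) lay below 0, also with intervals holding it. Scd2 was at 29.9 and 25.3 CPM (log2 -0.24, -0.47 to -0.01). Scd1 rested on 45 and 53 UMIs, at 3.13 and 5.22 CPM (log2 0.74, 0.14 to 1.34), and was under the minimum of 100 UMIs. Also under that minimum, Hsd17b7 (log2 -0.64, -1.38 to 0.07) and Acss2 (-0.53, -1.30 to 0.20) lay the other way. Lss (0.05) and Tm7sf2 (-0.07) were close to 0. The count in the whole gate also changed with the treatment of doublets. With no doublet removal 6 members were higher, beside 15.3% of all genes. With Scrublet's own threshold 3 were higher, beside 12.8%. The share of all genes thus fell too, and 3 of 28 is no more than that share.

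**Figure D5:**
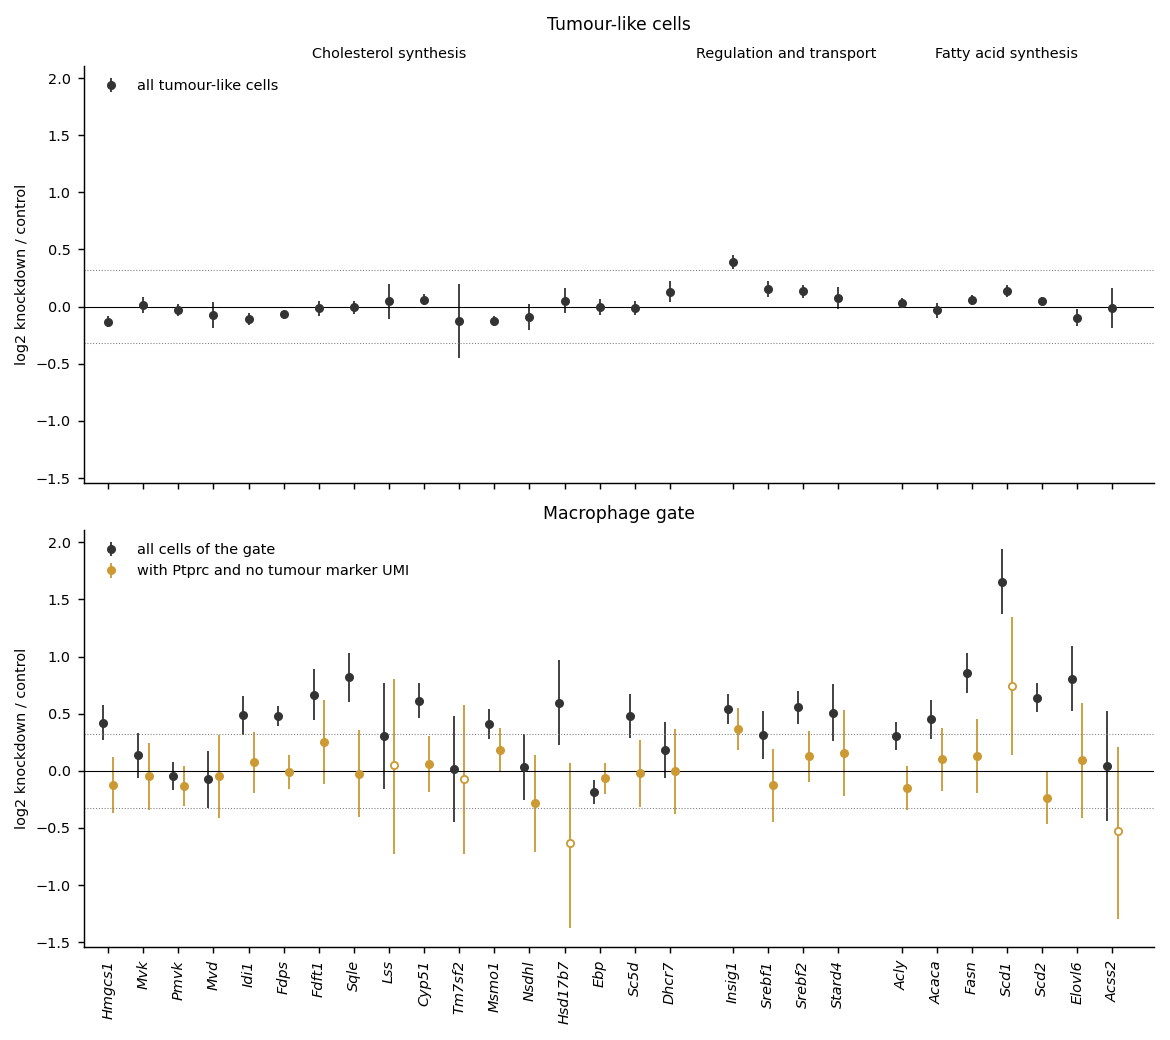
Log2 ratio of knockdown over control for each gene in tumour-like cells (top) and in the macrophage gate (bottom; black, all cells; gold, cells with a Ptprc UMI and no tumour marker UMI). Bars are exact 95% intervals for counting error, dotted lines mark the 25% difference and open points have under 100 UMIs over both libraries; the gold points lie around 0 except Insig1 and a few with wide bars.

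Of the 10 genes of storage, export and oxysterol synthesis, 2 were lower by 25% in the macrophage gate and none was higher, beside 5.88% of all genes lower and 24.3% higher. In the restricted macrophages 1 was lower and 1 higher, beside 6.56% and 10.8%, which is close to those shares. Abcg1, a sterol exporter, was at 67.8 and 43.5 CPM in the whole gate (log2 -0.64, -0.76 to -0.52) and at 74.2 and 55.8 CPM in the restricted macrophages (log2 -0.41, -0.56 to -0.26). Its relative Abca1 was at 234 and 173 CPM in the gate (log2 -0.43, -0.49 to -0.37), but at 256 and 234 CPM in the restricted macrophages (log2 -0.13, -0.21 to -0.06), within 25%. Ch25h, which makes an oxysterol, was at 59.0 and 59.9 CPM in the gate (log2 0.02, -0.09 to 0.13) and higher in the restricted macrophages, at 65.8 and 83.9 CPM (log2 0.35, 0.21 to 0.48). In the gate, Me1, an enzyme supplying reducing power for lipid synthesis (log2 1.34), Fads2 (1.19), Acsl3 (1.06) and Aacs, which activates acetoacetate (0.65), were higher. In the restricted macrophages only Fads2 of these 4 was past 25%, at 6.05 and 7.59 CPM with an interval holding 0, and Acat2 was lower (log2 -0.37), also with an interval holding 0.

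T cells (786 control, 676 knockdown) gave 22 members with enough UMIs, and the counts were small. Elovl6 was higher at 16.1 and 25.6 CPM (log2 0.67, 0.18 to 1.16) and Idi1 at 42.0 and 52.6 CPM (log2 0.32, with an interval that just excluded 0), beside 15.2% of genes higher. Sqle was lower at 34.8 and 26.3 CPM (log2 -0.40, with an interval that just excluded 0), beside 6.01% lower. Sqle turned to a log2 ratio of 0.06 with no doublet removal, and Elovl6 to -0.07 with cells thinned to 2000 UMIs, where only 4 members had enough UMIs. The median log2 ratio was 0.11, against 0.06 over all genes. Hmgcs1 at 45.9 and 49.6 CPM, Cyp51 at 46.8 and 52.9 CPM, Insig1 at 36.5 and 37.5 CPM and Srebf2 at 49.2 and 55.6 CPM had intervals of the ratio that held 0. So did Srebf1 at 23.5 and 26.0 CPM, Stard4 at 25.9 and 30.9 CPM, Acly at 67.0 and 72.3 CPM, Fasn at 42.5 and 48.3 CPM, Scd1 at 18.0 and 20.4 CPM and Scd2 at 73.7 and 65.4 CPM. Of the further genes, Elovl5, an elongase of polyunsaturated fatty acids (log2 0.72), Mylip, a ligase that marks a lipoprotein receptor for decay (0.53), and Acsl4, which activates polyunsaturated fatty acids (0.41), were higher, while Mbtps2 (-0.43) and Fads2 (-0.41) were lower with intervals holding 0. The gate also held RNA of other cells, with Hmga2 at 111 and 92.7 CPM and the 7 macrophage markers summing to 2261 and 2852 CPM. In T cells with Ptprc, outside the macrophage gate and without a tumour marker UMI (462 and 407 cells), 9 members reached 100 UMIs. Of these, 3 were higher by 25% and 2 lower, beside 11.4% of genes higher and 7.54% lower. Acly was at 39.9 and 60.1 CPM (log2 0.59, 0.08 to 1.11), Srebf2 at 43.1 and 60.1 CPM (log2 0.48, -0.02 to 0.98) and Idi1 at 36.6 and 45.9 CPM (log2 0.33, -0.24 to 0.89). The lower ones were Pmvk, phosphomevalonate kinase, at 49.7 and 36.7 CPM (log2 -0.44, -1.01 to 0.12) and Scd2 at 50.3 and 35.9 CPM (log2 -0.49, -1.06 to 0.07). Only the interval of Acly excluded 0 among these. Under the minimum of 100 UMIs, Elovl6 and Sqle kept the direction of the whole gate. Elovl6 was at 8.50 and 19.2 CPM (log2 1.175, 0.13 to 2.28) and Sqle at 19.6 and 11.7 CPM (log2 -0.75, -1.78 to 0.21).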

How the data were processed

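Single-cell RNA was measured in 1 control and 1 knockdown tumour. The authors deposited raw UMI counts for each gene in each cell, from Cell Ranger, version 6.1.0 per the file headers and 3.1.0 per the submitters' processing notes; the genome build is not given in the sources used here. Cells with under 200 genes or over 20% mitochondrial UMIs were left out, and the cells with the highest Scrublet scores were removed as doublets at 0.8% per 1000 cells (scanpy 1.11.5, Python 3.11.15). Raw counts were summed per library and class. No test was run, as each group has 1 library; a gene counted as past the fold where the higher level exceeded the lower by 25%, with at least 100 UMIs over both libraries. Level intervals are exact Poisson, and ratio intervals exact binomial given the sum of both counts. States and high cells needed 10 expected UMIs and 1.5-fold in both libraries. Thinning used 5000 UMIs per tumour-like cell and 2000 otherwise, leaving out shallower cells (605 control and 984 knockdown macrophages). The ratio script was tested on simulated data. A planned split of the macrophages by marker genes is not reported here. Named genes were the members past the fold, up to 12 per class, with 12 members given in every class, and further pathway genes past the fold; others were chosen after their values were seen. The members and lists were chosen with earlier results of these data known. Alternatives included edgeR 4.0.16 TMM scaling, other doublet and mitochondrial limits, thinning, equal cell weights and other gates.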

Additional observations from a re-analysis of the deposited data

Results flagged for a closer look

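Several members had a ratio of knockdown over control on one side of 0 in one class and on the other side in another, with counting intervals that both excluded 0. These differences are given on the log2 scale and were not tested, since each class rests on 1 library per group. The ratio in the macrophage gate minus that in tumour-like cells was 0.55 for Hmgcs1, 0.59 for Idi1, 0.55 for Fdps, 0.54 for Msmo1 and 0.90 for Elovl6. In macrophages with Ptprc and without tumour marker UMIs, the ratios themselves were -0.12 for Hmgcs1, 0.07 for Idi1, -0.01 for Fdps, 0.18 for Msmo1 and 0.09 for Elovl6, each with an interval holding 0. The T cell ratio minus that in tumour-like cells was 0.43 for Idi1 and 0.77 for Elovl6, but the T cell ratio of Elovl6 was -0.07 with thinned cells. The T cell ratio minus that in the macrophage gate was -1.22 for Sqle. In those restricted macrophages the Sqle ratio was -0.02, with an interval holding 0, and in T cells it was 0.06 with no doublet removal. In T cells with Ptprc, outside the macrophage gate and without a tumour marker UMI, the ratios were 0.33 for Idi1, 1.175 for Elovl6 and -0.75 for Sqle. Of these only the Elovl6 interval (0.13 to 2.28) excluded 0, and Elovl6 and Sqle had under 100 UMIs.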

How the results depend on the processing

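In tumour-like cells Insig1 stayed the 1 member past the 25% difference, and none was lower, under every alternative run; its log2 ratio ran from 0.32 with TMM, beside the threshold of 0.32, to 0.40 without cells with Xist. In the macrophage gate the count of higher members was 6 with no doublet removal (median log2 ratio 0.18; 15.3% of all genes higher), 3 with Scrublet's own threshold (0.0334; 12.8%) and 1 with Ptprc and without tumour marker UMIs (-0.0115; 10.8%), and 1 member was lower with TMM, with thinned cells (6.52% of all genes lower) and with equal cell weights (6.83%). Median-of-ratios and TMM scaling moved the median log2 ratio of all genes in the gate from 0.11 to 0 and -0.03, and the shares of genes higher and lower from 24.3% and 5.88% to 17.3% and 11.0% and to 15.7% and 13.3%. In T cells, 1 member was higher and 2 lower with median of ratios (10.5% of all genes higher and 9.28% lower), with TMM (9.02% and 10.9%) and without mitochondrial and ribosomal genes in the total (11.8% and 8.24%); 1 was higher with the 10% mitochondrial limit (15.3% of all genes); 1 was higher and 3 lower with 3 Cd3 UMIs (12.6% and 6.68%). Lower T cell members numbered 3 with no minimum of UMIs (16.1% of all genes lower) and with equal weights (9.47%), 4 with Scrublet's own threshold (15.1%), 2 without cells of more than 1 gate (7.72%) and with Ptprc and no tumour marker (7.54%), and 0 of the 4 with enough UMIs with thinned cells (6.90%). With doubled state cutoffs, 6 of 25 members were lower in the Cryab Krt14 state, beside 6.73% of all genes, and 5 of 18 in the Krt16 Klk8 state, beside 2.70%. With Scrublet's own threshold Hsd17b7 (-0.13), Fdps (-0.0345), Fasn (-0.0029) and Scd2 (-0.0906), of the members past 25% in the gate, turned below 0. With Ptprc and no tumour marker Hmgcs1 (-0.12), Fdps (-0.0115), Sqle (-0.0239), Hsd17b7 (-0.64), Sc5d (-0.0229) and Scd2 (-0.24) did, as did Srebf1 (-0.13) and Acly (-0.15), which had fallen short of 25%. In T cells Sqle was at 0.0639 with no doublet removal and Elovl6 at -0.0683 with thinned cells. The cause of these shifts was not tested. No paired analysis was possible because each group has 1 library.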
